A study of Mus musculus with 6 samples.

Results

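Cul5 cKO Th9 cultures carried more mRNA for the glucose transporter Slc2a1 and the hexokinase Hk2 than WT cultures, and of the 37 genes of glycolysis and of the response to low oxygen considered here these 2 passed the test. The 37 genes are 26 of glycolysis, from glucose uptake to lactate export and the kinases of pyruvate dehydrogenase, and 11 that low oxygen is known to induce. They were taken by name out of 22559 genes with a count, and all 37 were among the 12925 genes tested. The rule uses no measured value, but the list was chosen with earlier results of these data known. Shares of members beside the background are therefore descriptions. Of the 37 names, 36 were found in the gene-level values as deposited. Pfkfb4 was not among them. Levels and tests below use transcript values summed per gene for all 37 members, unless the gene-level values are named.

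The RNA came from naive CD4+ T cells of C57BL/6 mice aged 8 to 10 weeks, cultured for 48 hours with anti-CD3 and anti-CD28 under Th9 conditions (IL-4, TGF-β and anti-IFN-γ). The 3 Cul5 cKO samples came from Cul5 fl/fl CD4-Cre mice. In these mice the CD4 promoter drives Cre in all T cells from the thymus onward, and Cre removes part of Cul5, which encodes the scaffold of a ubiquitin ligase. The 3 WT samples came from littermates without the deletion. The labels do not say whether the 3 samples of a genotype came from separate mice, so the p-values measure the spread between these samples, which may be technical. The sources used here state no reduced oxygen in the cultures.

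Glycolysis splits glucose into pyruvate. Transporters of the SLC2A family let glucose in, hexokinases trap it by phosphorylation, phosphofructokinases commit it to the pathway, and the later enzymes harvest ATP and NADH before lactate dehydrogenase returns NAD+ and monocarboxylate transporters carry lactate out. T cells raise this pathway after activation, through mTORC1, MYC and the hypoxia-inducible factor HIF-1. HIF-1 binds a short core in DNA, ACGTG or GCGTG, near many of the genes below. Prolyl hydroxylases such as EGLN3 mark its alpha subunit for destruction when oxygen is present.

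The promoter sequences of 6 members are shown because they cover both genes that passed the test, 2 further glycolysis genes and 2 hypoxia-induced genes. The sequences are from RefSeq on GRCm38.p6. Each is the stretch of 100 bases with most core matches upstream of both the RefSeq and the GENCODE start of the gene, written 5′ to 3′ along the gene, with matches to ACGTG and GCGTG on either strand (CACGT and CACGC in reverse) in capitals.
Slc2a1 (chr4:119108611-119108710, plus strand): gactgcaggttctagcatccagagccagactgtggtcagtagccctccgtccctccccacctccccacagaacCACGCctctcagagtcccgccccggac
Hk2 (chr6:82774455-82774554, minus strand): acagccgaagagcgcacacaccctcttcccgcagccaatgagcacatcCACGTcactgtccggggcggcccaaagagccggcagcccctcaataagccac
Ldha (chr7:46845704-46845803, plus strand): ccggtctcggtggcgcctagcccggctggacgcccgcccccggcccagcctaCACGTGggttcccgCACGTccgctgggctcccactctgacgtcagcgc
Pgk1 (chrX:106186950-106187049, plus strand): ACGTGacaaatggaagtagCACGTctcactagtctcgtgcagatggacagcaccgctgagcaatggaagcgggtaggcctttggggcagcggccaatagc
Bnip3 (chr7:138909524-138909623, minus strand): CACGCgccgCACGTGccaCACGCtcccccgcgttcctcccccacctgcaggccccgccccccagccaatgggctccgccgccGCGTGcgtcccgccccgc
Ero1l (chr14:45318601-45318700, minus strand): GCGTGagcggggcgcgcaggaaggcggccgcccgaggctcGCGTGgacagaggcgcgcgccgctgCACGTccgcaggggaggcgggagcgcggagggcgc
The printed stretch of Slc2a1 holds 1 GCGTG match, and its single ACGTG match lies elsewhere in the window of 250 bases before to 50 after the RefSeq start. Hk2 has 2 ACGTG matches in its window, Ldha 5, Pgk1 2, Bnip3 2 and Ero1l 1, where the palindrome CACGTG counts on both strands. A window was listed for 35 of the 37 members, all but Slc2a3 and Bnip3l. Of these 35, 20 held ACGTG (57.1%), against 19.6% of all 32851 windows and 25.3% of the 12426 windows of genes tested here. GCGTG was in 24 of the 35 (68.6%), against 32.4% and 49.7%. Members that did not pass the test hold such matches too, among them Slc2a6 with 4 of GCGTG, whose Cul5 cKO samples lay below WT. The members were picked from pathways that HIF-1 is known to raise, so a share above the background was built into the choice. No conclusion is drawn from these shares. A match describes letters in a window and is not a bound site.

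Cul5 itself was at 64.4, 69.3 and 65.0 CPM (counts scaled to a common library size) in WT replicates 1, 2 and 3 and at 10.6, 14.2 and 13.1 CPM in Cul5 cKO, a log2 fold change of -2.39, so the libraries matched their labels. Values below are in this order of replicates. Total counts were between 23111689 and 23454552 in 5 libraries and 3944803 in WT replicate 3, where a floor of 3 counts is 0.759 CPM against 0.128 to 0.133 CPM elsewhere. WT replicate 3 stood apart in a second way. Its transcript lengths were shortened by 246.1 bases in the estimate of effective length, against 202.3 to 211.0 in the others, and 2.54% of its counts were assigned to pseudogenes, against 1.61% to 1.88%. These floors cover counting error only. Replicate 1 was the highest of its genotype in both genotypes for 17 of the 37 members (45.9%), against 23.4% of genes tested. The 9 CD4 T cell markers summed to 2017 to 2164 CPM in WT and to 1876 to 2001 CPM in Cul5 cKO, all Cul5 cKO samples being below all WT samples. Of the 9, 5 lay wholly below WT (background 13.5%). Cd4 itself had a log2 fold change of -0.02 (edgeR adjusted p = 0.863). Cd2 was the 1 of the 9 with a positive value, 0.29 (edgeR adjusted p = 0.219). Cd28, the costimulatory receptor, was the 1 called lower (background 0.418%). Cd28 was at 88.2, 120.1 and 125 CPM in WT against 46.4, 56.3 and 45 CPM in Cul5 cKO, with a log2 fold change of -1.17 ± 0.15 (SE, n = 3 each, edgeR adjusted p = 0.0206). Its adjusted p by edgeR was 0.0180 without WT replicate 1 and 0.0504 to 0.137 without any other single sample. The cytokine Il9, which names Th9 cells, was at 355, 308 and 298 CPM in WT against 729, 804 and 1021 CPM in Cul5 cKO. It was the 1 called among 4 Th9 markers (background 0.611% higher). Of the 4, 2 lay wholly above WT (background 14.0%) and 1, Gata3, wholly below (background 13.5%). The log2 fold change of Gata3 was -0.16 (edgeR adjusted p = 0.232). Markers of other cells were low. The B cell list summed to 55.6 CPM in Cul5 cKO replicate 3 and to between 14.5 and 23.7 CPM in the others, the myeloid list to 22.0 CPM in Cul5 cKO replicate 2 and to between 2.69 and 8.44 CPM elsewhere, and the platelet list to 16.2 CPM in Cul5 cKO replicate 2 and to between 0.999 and 2.03 CPM elsewhere. CD8 T cell, NK cell and erythroid lists summed to at most 11.7, 13.0 and 2.67 CPM, and the NK genes Ncr1 and Klra8 were at 0 in every library. The part of these traces in the results was not tested. In RNA from whole cultures, fewer cells of a type and less RNA per cell cannot be told apart.

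Of the 37 members, 2 were higher in Cul5 cKO at an adjusted p under 0.05 (5.41%), against 0.611% of the genes tested, and none was lower, against 0.418%. At an unadjusted p under 0.05 there were 13 higher (35.1%, background 11.0%) and 5 lower (13.5%, background 10.4%). The 3 Cul5 cKO samples lay above all 3 WT samples for 12 members (32.4%, background 14.0%) and below them for 3 (8.11%, background 13.5%). The log2 fold change was positive for 26 members (70.3%, background 48.8%) and its median was 0.22, against -0.01 over all genes tested. By DESeq2, 7 members were higher (18.9%, background 1.85%), namely Slc2a1, Hk2, Pfkp, Aldoa, Pgam1, Ero1l and Mxi1, and none was lower (background 1.49%), both backgrounds out of 22400 genes. These 22400 genes include low ones that the expression filter of the edgeR test removed, while all 37 members passed that filter. The DESeq2 shares of members and background are therefore not like for like. The positive sign was more frequent among abundant members. Among the 15 members with a WT mean of at least 100 CPM, 14 had a positive log2 fold change, with a median of 0.29. The 22 less abundant members were split into 12 and 10, with a median of 0.02. The share of positive signs among all genes of either level was not determined, so this split has no background. The spread among members was wide, from 0.80 for Hk2 to -1.86 for Tpi1, a value that 1 library set.

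**Figure D1:**
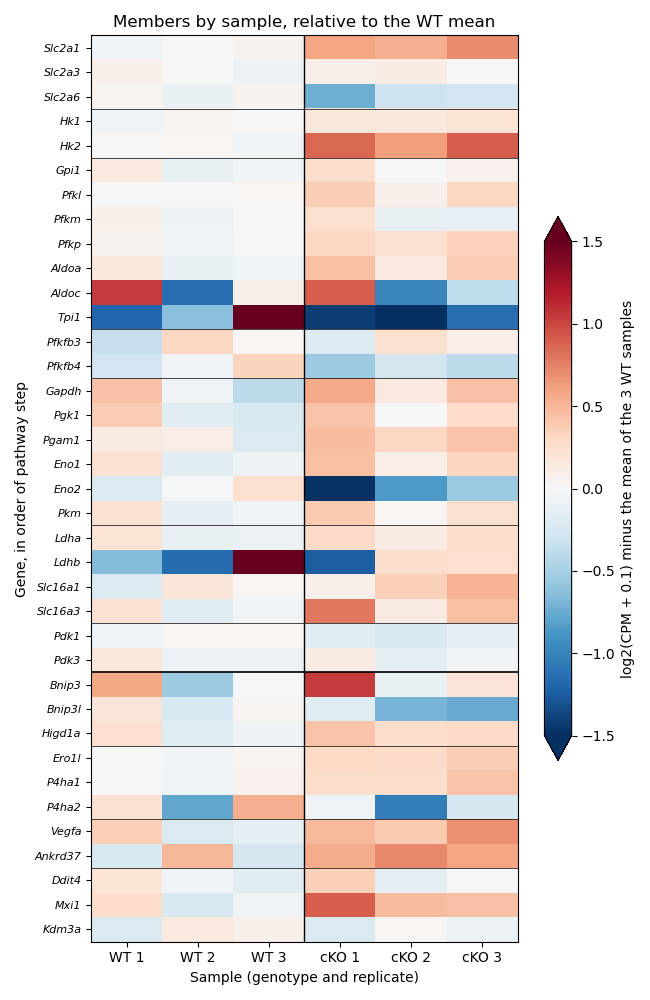
Each row is a gene in order of pathway step and each column a sample, with colour giving log2(CPM + 0.1) minus the mean of the 3 WT samples, cut at 1.5 on either side, and thin lines parting the steps. The 3 Cul5 cKO columns are red throughout for Slc2a1, Hk2 and Mxi1, while Bnip3 and Aldoc differ more between replicates than between genotypes.

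Of the glucose transporter genes, Slc2a1 had more mRNA in Cul5 cKO, and the other 2 did not pass the test. Slc2a1 (ENSMUSG00000028645, GRCm38 chr4:119108711-119137983, plus strand), the transporter GLUT1, was at 95.1, 97.4 and 101 CPM in WT against 147, 143 and 160.4 CPM in Cul5 cKO. All 3 Cul5 cKO samples lay above all WT samples, with means of 98 ± 3.23 CPM for WT and 150.3 ± 9.04 CPM for Cul5 cKO (SD, n = 3 each). The log2 fold change was 0.62 ± 0.07 (SE, n = 3 each, edgeR adjusted p = 0.0159). Slc2a3, the transporter GLUT3, was at 32.8, 31.3 and 29.4 CPM in WT against 33.1, 33.6 and 31 CPM in Cul5 cKO, and the groups overlapped. Its log2 fold change was 0.06 ± 0.08 (SE, n = 3 each, edgeR adjusted p = 0.713). Slc2a6, the transporter GLUT6 of the same family, was at 71.2, 64.8 and 72.1 CPM in WT against 41.5, 55.7 and 57 CPM in Cul5 cKO. Each Cul5 cKO sample was below each WT sample, but the log2 fold change of -0.43 ± 0.13 (SE, n = 3 each, edgeR adjusted p = 0.131) did not pass the test. The ratio of Slc2a1 to Slc2a3 in TPM (transcript abundance scaled for length and depth) was 2.63, 2.73 and 4.08 in WT and 3.98, 3.39 and 5.01 in Cul5 cKO, with overlap (exact two-sided permutation p = 0.3). In CPM it was 2.90, 3.12 and 3.46 in WT and 4.45, 4.26 and 5.17 in Cul5 cKO without overlap, at p = 0.1 in the exact test, the smallest that 3 samples against 3 allow. Ratios were computed for 8 pairs of members on both scales.

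The hexokinases phosphorylate glucose on entry. Hk2 (ENSMUSG00000000628, GRCm38 chr6:82725025-82774454, minus strand), the inducible form bound to mitochondria, was at 106, 108 and 102 CPM in WT against 192, 163 and 197 CPM in Cul5 cKO. Its lowest Cul5 cKO sample was well above its highest WT sample, with means of 105 ± 2.79 CPM for WT and 184 ± 18.6 CPM for Cul5 cKO (SD, n = 3 each), and the log2 fold change was 0.80 ± 0.09 (SE, n = 3 each, edgeR adjusted p = 0.0159), the highest value among the members. Hk1, the constitutive form, was at 159, 170.1 and 166 CPM in WT against 186, 185 and 189.7 CPM in Cul5 cKO. Its groups did not overlap either, and the log2 fold change was 0.18 ± 0.06 (SE, n = 3 each, edgeR adjusted p = 0.15). On the scale per length, Hk1 stayed the more abundant transcript of the pair in every sample: Hk2 over Hk1 in TPM was 0.463, 0.437 and 0.415 in WT and 0.716, 0.606 and 0.727 in Cul5 cKO, with an exact permutation p = 0.1, the smallest possible.

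The calls of Slc2a1 and Hk2 were lost without any of 3 single libraries, while the direction held in every fit that left out 1 sample. Leaving out 1 sample at a time kept the log2 fold change of Slc2a1 between 0.57 and 0.66 and that of Hk2 between 0.75 and 0.89. With WT replicate 2 left out, the edgeR adjusted p was 0.0885 for Slc2a1 and 0.0770 for Hk2. With WT replicate 3 left out it was 0.0817 for both, and with Cul5 cKO replicate 3 left out 0.0804 for both. In those fits 2, 2 and 3 genes, in the same order, passed out of all tested. In replicates 2 and 3 alone, the adjusted p was 0.0160 for Slc2a1 and 0.0178 for Hk2. On the deposited gene-level values, limma gave an adjusted p of 0.0679 for Slc2a1, which did not pass, and 0.0381 for Hk2.

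**Figure D2:**
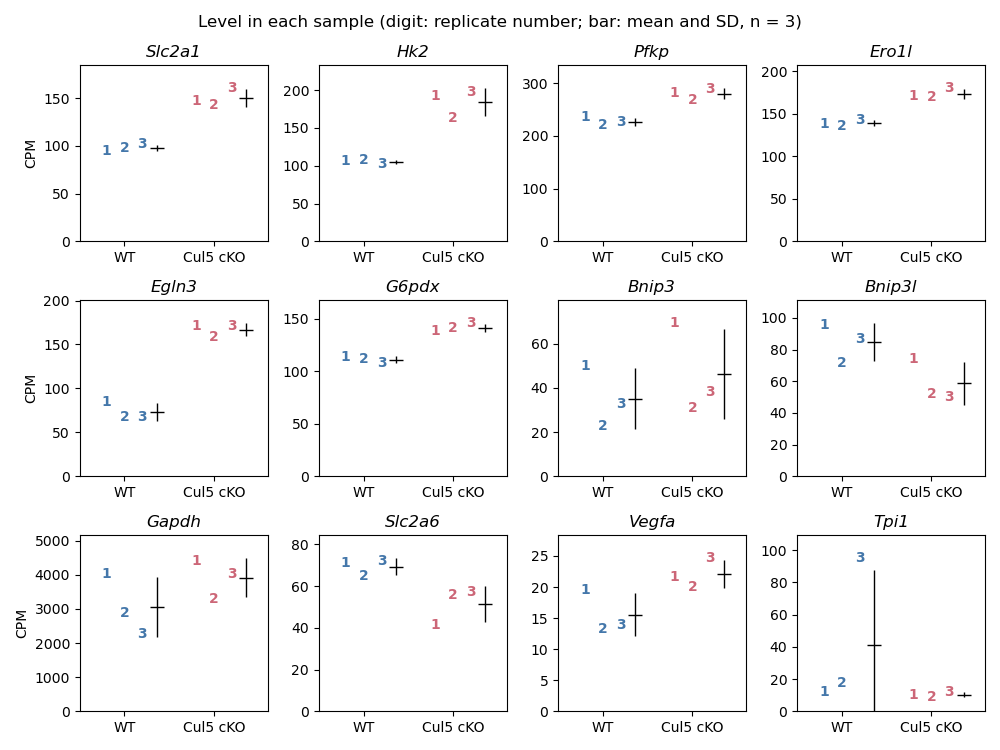
Level in CPM of 12 genes by genotype, with each digit the replicate number of a sample and the bar the mean and SD of 3 samples, and every axis starting at 0. Slc2a1, Hk2, Pfkp, Ero1l, Egln3 and G6pdx are separated by genotype, Bnip3 and Gapdh overlap, and the WT mean of Tpi1 is set by replicate 3 at 94.9 CPM.

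The middle of the pathway did not pass the test at any step. Phosphofructokinase makes fructose-1,6-bisphosphate and is the committed step. Its platelet type Pfkp, the most abundant of the 3 subunit genes per length in every sample, was at 235, 219.9 and 227 CPM in WT against 282, 269 and 289 CPM in Cul5 cKO. The groups were separated, with a log2 fold change of 0.30 ± 0.06 (SE, n = 3 each, edgeR adjusted p = 0.0698). The 3′ end of Pfkp overlaps Pitrm1 on the other strand, and the sources used here do not state whether reads were assigned by strand. The liver type Pfkl was at 123, 122 and 127 CPM in WT against 160.2, 131 and 154 CPM in Cul5 cKO and was also separated, with a log2 fold change of 0.26 ± 0.09 (SE, n = 3 each, edgeR adjusted p = 0.155). The muscle type Pfkm was between 20.9 and 26.8 CPM in all samples, with a log2 fold change of 0.01. Of the 2 bifunctional enzymes that set the level of the activator fructose-2,6-bisphosphate, Pfkfb3 was at 36.3, 57 and 47.1 CPM in WT against 39.8, 54.4 and 49.4 CPM in Cul5 cKO and Pfkfb4 at 3.93, 4.63 and 6.07 CPM in WT against 3.26, 3.94 and 3.65 CPM in Cul5 cKO. Both overlapped, with log2 fold changes of 0.03 and -0.39 (edgeR adjusted p = 0.942 and 0.362). Gpi1, the isomerase before phosphofructokinase, had a log2 fold change of 0.11 ± 0.09 (SE, n = 3 each, edgeR adjusted p = 0.532).

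Aldolase splits the 6-carbon sugar. Aldoa was at 1109, 930.2 and 954 CPM in WT against 1359, 1104 and 1293 CPM in Cul5 cKO. WT replicate 1 was just above the lowest Cul5 cKO sample, so the groups overlapped, and the log2 fold change was 0.33 ± 0.10 (SE, n = 3 each, edgeR adjusted p = 0.138). Aldoc was between 1.77 and 8.41 CPM and was highest in replicate 1 of both genotypes. Tpi1, which interconverts the 2 products of aldolase, was listed at 11.8, 17.3 and 94.9 CPM in WT against 9.99, 9.03 and 12.1 CPM in Cul5 cKO. The single value of 94.9 CPM in WT replicate 3 produced the log2 fold change of -1.86 ± 0.74 (SE, n = 3 each, edgeR adjusted p = 0.214), and without that library it was -0.49. Per length, Tpi1 was listed at 19.0, 23.3 and 134 TPM in WT, far below the abundant enzymes of the pathway. The annotation used here does not place 2774 of the deposited transcripts in a gene, and the largest of these in each library held 1612 counts in WT replicate 3 and 11197 to 14383 elsewhere. Whether any belong to Tpi1 is not known here, and if so the values of Tpi1 lack those reads, so they are uncertain.

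The later steps of the pathway held the most abundant members. Gapdh, the dehydrogenase that reduces NAD+, was at 4605, 3423 and 3434 TPM in WT against 5106, 3715 and 4497 TPM in Cul5 cKO and ranked 23 of 22559 genes by its WT mean. Ldha, Eno1, Pkm and Aldoa followed, at ranks 82, 109, 125 and 138. All had positive log2 fold changes, and none passed the test. Gapdh was at 4021, 2876 and 2271 CPM in WT against 4412, 3286 and 4036 CPM in Cul5 cKO, and its groups overlapped because WT replicate 1 was above Cul5 cKO replicate 2. Its log2 fold change was 0.36 ± 0.20 (SE, n = 3 each, edgeR adjusted p = 0.361). Pgk1, the first ATP-yielding enzyme, was at 1068, 734 and 699 CPM in WT against 1104, 825 and 994 CPM in Cul5 cKO, and again WT replicate 1 lay within the Cul5 cKO range, for a log2 fold change of 0.22 ± 0.18 (SE, n = 3 each, edgeR adjusted p = 0.507). Pgam1, the phosphoglycerate mutase, was at 543, 532 and 428 CPM in WT against 689, 617 and 673 CPM in Cul5 cKO. It was the only one of these 6 later enzymes in which every Cul5 cKO sample was above every WT sample, with a log2 fold change of 0.39 ± 0.10 (SE, n = 3 each, edgeR adjusted p = 0.107).

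Enolase makes phosphoenolpyruvate. Eno1 was at 2268, 1728 and 1830.1 CPM in WT against 2628, 2074 and 2411 CPM in Cul5 cKO, with a log2 fold change of 0.29 ± 0.12 (SE, n = 3 each, edgeR adjusted p = 0.236). Eno2, the neuronal form, was at 3.46, 3.98 and 4.81 CPM in WT against 1.39, 2.19 and 2.71 CPM in Cul5 cKO. Its 3 Cul5 cKO samples were below all WT samples at these low levels, and its log2 fold change was -0.93 ± 0.30 (SE, n = 3 each, edgeR adjusted p = 0.153). Pkm, the pyruvate kinase, was at 2359, 1822 and 1931 CPM in WT against 2664, 2064 and 2399 CPM in Cul5 cKO, with a log2 fold change of 0.22 ± 0.12 (SE, n = 3 each, edgeR adjusted p = 0.348). For Eno1 and Pkm, as for Gapdh and Pgk1, replicate 1 was the highest sample of each genotype.

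Lactate dehydrogenase turns pyruvate into lactate. Ldha was at 2133, 1724 and 1742 CPM in WT against 2270.5, 2006 and 2225 CPM in Cul5 cKO. WT replicate 1 lay between the Cul5 cKO samples, and the log2 fold change was 0.22 ± 0.10 (SE, n = 3 each, edgeR adjusted p = 0.253). Ldhb, the heart form, was near the floor in some libraries, at 1.02, 0.692 and 6.07 CPM in WT against 0.651, 2.02 and 2 CPM in Cul5 cKO, and no direction was read from it. Slc16a1, the transporter MCT1 for lactate and pyruvate, was at 137, 180.0 and 162 CPM in WT against 168, 203 and 228 CPM in Cul5 cKO, with a log2 fold change of 0.32 ± 0.14 (SE, n = 3 each, edgeR adjusted p = 0.235). Slc16a3, the lactate exporter MCT4, was at 69.8, 53 and 58.2 CPM in WT against 104, 65.5 and 82.2 CPM in Cul5 cKO, with a log2 fold change of 0.47 ± 0.18 (SE, n = 3 each, edgeR adjusted p = 0.193). Both transporters had a higher mean in Cul5 cKO and overlapping groups.

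The kinases of pyruvate dehydrogenase keep pyruvate out of the mitochondrial cycle. Pdk1, the HIF-1 target among them, was at 103, 109.6 and 109 CPM in WT against 95.4, 91.5 and 97.4 CPM in Cul5 cKO. All Cul5 cKO samples were below all WT samples by a small margin, and the log2 fold change of -0.18 ± 0.06 (SE, n = 3 each, edgeR adjusted p = 0.169) did not pass the test. Pdk3 was at 65, 54.3 and 54.2 CPM in WT against 62.5, 52.6 and 55.9 CPM in Cul5 cKO, with a log2 fold change of -0.03. Pdk1 thus had the opposite sign to Slc2a1, Hk2, Pgk1 and Ldha, which HIF-1 is also known to induce, and the difference between these genes was not tested.

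Of the 11 hypoxia-induced genes, 8 had a positive log2 fold change, none passed the test, and the median was 0.32. Ero1l, which makes disulfide bonds in the endoplasmic reticulum, was at 138, 135 and 143 CPM in WT against 171, 169 and 179.9 CPM in Cul5 cKO. The groups did not overlap and the spread within each was small, for a log2 fold change of 0.32 ± 0.06 (SE, n = 3 each, edgeR adjusted p = 0.0619). P4ha1, a subunit of the collagen prolyl hydroxylase, was at 35.4, 34.3 and 37.5 CPM in WT against 42.9, 43.1 and 48.2 CPM in Cul5 cKO and was also separated, with a log2 fold change of 0.33 ± 0.08 (SE, n = 3 each, edgeR adjusted p = 0.0971). The second such subunit gene P4ha2 was at 1.77 CPM or less in every sample. Vegfa, the growth factor for blood vessels, was at 19.6, 13.2 and 13.9 CPM in WT against 21.6, 20.1 and 24.6 CPM in Cul5 cKO. Its groups were separated by a narrow gap, since WT replicate 1 was close to Cul5 cKO replicate 2, and the log2 fold change was 0.49 ± 0.17 (SE, n = 3 each, edgeR adjusted p = 0.171). Without WT replicate 1 it was 0.72 and passed, at an edgeR adjusted p of 0.0493.

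Mxi1, which opposes MYC, was at 69.8, 49 and 55.4 CPM in WT against 107, 79 and 78.2 CPM in Cul5 cKO. Replicate 1 was the highest sample of each genotype, the groups were separated, and the log2 fold change was 0.60 ± 0.17 (SE, n = 3 each, edgeR adjusted p = 0.122). Ddit4, the mTORC1 inhibitor REDD1, and Kdm3a, a histone demethylase, overlapped, with log2 fold changes of 0.07 and -0.09 (edgeR adjusted p = 0.834 and 0.677). Higd1a, a protein of the inner mitochondrial membrane, was at 43, 31.8 and 34.2 CPM in WT against 48.3, 43.1 and 44.1 CPM in Cul5 cKO, with a log2 fold change of 0.31 ± 0.12 (SE, n = 3 each, edgeR adjusted p = 0.213). Ankrd37, an ankyrin repeat protein, was at 1.27 to 2.21 CPM in WT and 2.30 to 2.59 CPM in Cul5 cKO, which is few reads in WT replicate 3. Its locus overlaps Lrp2bp.

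The paralogous mitophagy receptors Bnip3 and Bnip3l had opposite signs. Bnip3 was at 49.9, 22.9 and 32.6 CPM in WT against 69.3, 31 and 38.1 CPM in Cul5 cKO. Replicate 1 was far above the other samples of its genotype in both groups, and the log2 fold change was 0.38 ± 0.37 (SE, n = 3 each, edgeR adjusted p = 0.587). Bnip3l was at 95.4, 71.7 and 86.8 CPM in WT against 74.1, 51.9 and 49.9 CPM in Cul5 cKO. Cul5 cKO replicate 1 lay above WT replicate 2, so the groups overlapped, and its log2 fold change was -0.53 ± 0.17 (SE, n = 3 each, edgeR adjusted p = 0.155). The ratio of Bnip3 to Bnip3l in TPM was 0.492, 0.423 and 0.474 in WT and 0.906, 0.719 and 0.755 in Cul5 cKO. Every Cul5 cKO ratio was above every WT ratio, in CPM too, at the smallest exact permutation p = 0.1, in a pair set side by side after the values were seen.

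In replicates 2 and 3 alone, where 9.08% of genes passed, 8 of the 37 members did (21.6%): 7 higher (18.9%, background 4.53%) and 1 lower (2.70%, background 4.56%). The 7 were Slc2a1, Hk2, Pfkp, Ero1l, Higd1a, Vegfa and Mxi1, and the 1 was Bnip3l. Pfkp had a log2 fold change of 0.32, adjusted p = 0.0384, Ero1l of 0.33, adjusted p = 0.036, Mxi1 of 0.61, adjusted p = 0.016 and Bnip3l of -0.61, adjusted p = 0.0261. Vegfa had 0.74, adjusted p = 0.0334 and Higd1a 0.42, adjusted p = 0.0341. With near-full copies added to each gene, Pgam1 joined the 7. This fit rests on 2 samples a group, and 1 of these is the shallow WT replicate 3.

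**Figure D3:**
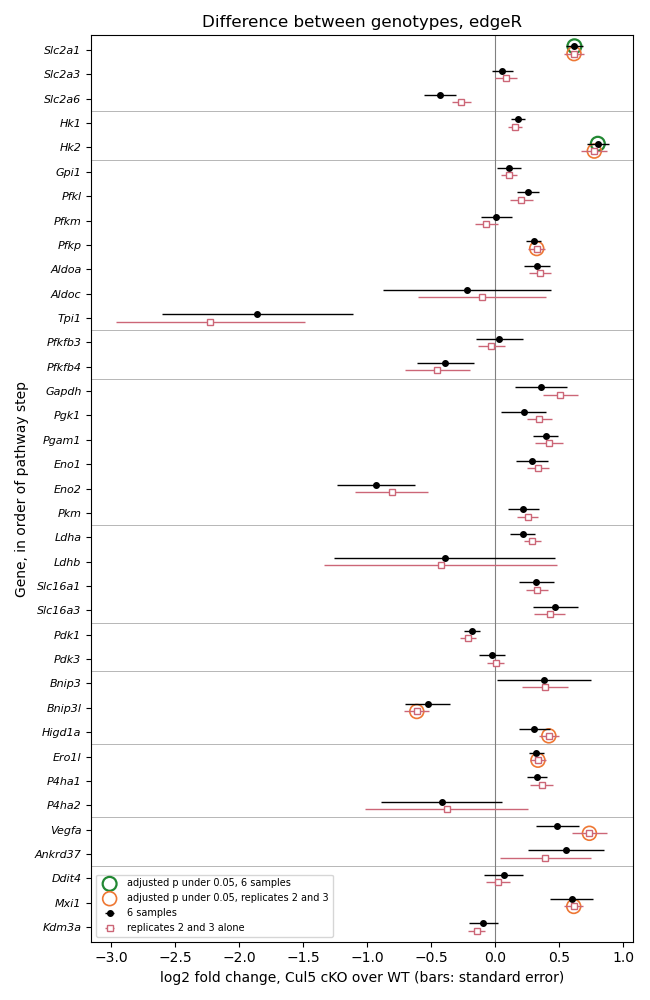
Log2 fold change of Cul5 cKO over WT for each member in order of pathway step, with bars of 1 SE, in all 6 samples (filled circles) and in replicates 2 and 3 alone (open squares), and rings marking an adjusted p under 0.05. Most of the abundant glycolysis genes lie to the right of 0, Slc2a1 and Hk2 lie above them, and Tpi1, Aldoc and Ldhb have the widest bars.

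The summed level of the 26 glycolysis genes was 13696, 11196 and 11335 TPM in WT and 15504, 12234 and 14000.1 TPM in Cul5 cKO, or 1.12% to 1.37% and 1.22% to 1.55% of all transcripts. WT replicate 1 exceeded Cul5 cKO replicate 2, so the groups overlapped, with a log2 ratio of 0.20 against an SD between replicates of 0.17. With the near-full copies described below added, the sum was 13927, 11647 and 13737 TPM in WT. In Cul5 cKO it was then 15824, 12972 and 14414 TPM. The log2 ratio of the sum with copies was 0.14, no larger than its SD between replicates of 0.14. Gapdh, Ldha and Eno1 made up 57.8% to 61.6% of that sum. The 2 hexokinases summed to 85.7, 94.8 and 84.5 TPM in WT and 120.0, 110.0 and 118.0 TPM in Cul5 cKO, and the 3 glucose transporters to 116, 120.4 and 121 TPM in WT and 126, 136 and 137 TPM in Cul5 cKO. These entry steps were separated by genotype, and they are a small share of the pathway's mRNA. The 6 later enzymes summed to 9175, 7161 and 6971 TPM in WT and 10362, 7850.5 and 9187 TPM in Cul5 cKO, and overlapped. The 11 hypoxia-induced genes summed to 421, 356 and 427 TPM in WT and 502, 383 and 395 TPM in Cul5 cKO and overlapped.

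**Figure D4:**
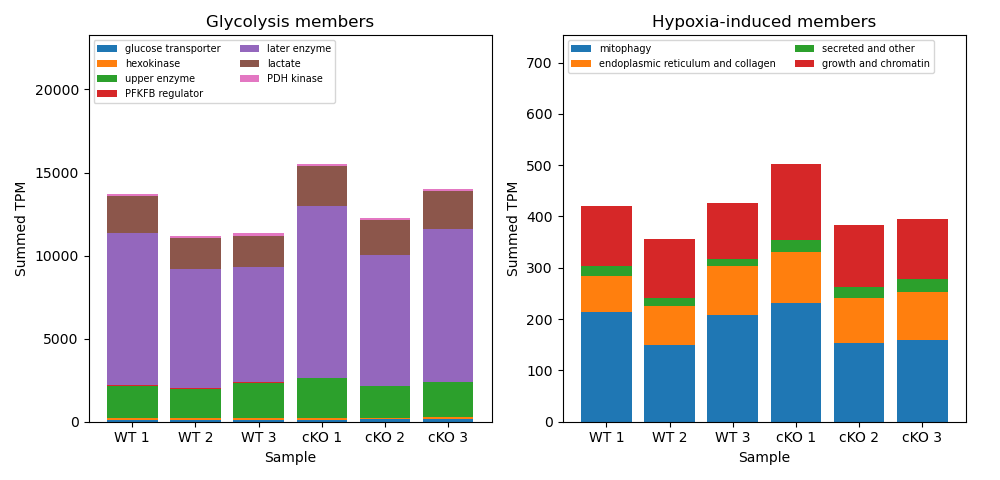
Summed TPM in each sample, stacked by pathway step, for the 26 glycolysis members (left) and the 11 hypoxia-induced members (right), both axes starting at 0. Cul5 cKO replicate 1 is the highest bar in both, and the later enzymes take most of the height on the left.

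Reads of several members are shared with near-identical copies, and these were assigned differently in WT replicate 3. Near-full copies (at least 95% identical over 150 bases and aligned over 50% of the copy) held 35.4% of the reads of Gapdh and its copies in WT replicate 3 and 3.33% to 11.7% in the other libraries. For Pgam1 the share was 15.1% in WT replicate 3, in Pgam1-ps2 on chr7:27469771-27470535, a processed pseudogene, and at most 0.0079% elsewhere. For Pgk1 it was 10.7%, in Gm5537 and Pgk1-rs7, and at most 0.00541% elsewhere. With copies added, the log2 fold change of Gapdh was 0.22 in place of 0.36, that of Pgam1 0.32 in place of 0.39 and that of Pgk1 0.18 in place of 0.22. None of them passed, and Slc2a1 and Hk2 have no near-full copy.

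Transcript shares told the same library apart. The leading transcript's share of its gene was lower in WT replicate 3 than in the other 5 libraries for 21 of the 37 members. In each of the others it was the lowest for 0 to 5 members. Slc2a1-201 held 71.7, 69.3 and 51.2% in WT and 66.7, 67.3 and 66% in Cul5 cKO, with most of the rest in Slc2a1-204, annotated for nonsense-mediated decay. Hk1-202 held 53.4, 53.1 and 29.4% in WT and 51.9, 52.1 and 50.5% in Cul5 cKO, and Pfkm-201, at 80.2% to 98.1% in the others, was listed at 0 in WT replicate 3. In the deposited gene-level table Pfkm was at -3.10 log2 CPM in WT replicate 3 and at 4.40 to 4.71 elsewhere, a mean 2.49 higher in Cul5 cKO, while the summed transcripts gave 20.9 to 26.8 CPM in all 6 samples and a log2 fold change of 0.01. Higd1a differed by 0.71 in that table and by 0.31 in the summed transcripts, and Pfkp by 0.09 and 0.30. Hk2-201 held at least 99.95% of the reads of Hk2 in every sample, and a single transcript held 100% of the reads of Slc16a1 and of Ddit4. Pkm-201 held 97.4, 95.9 and 94% in WT and 97, 95.8 and 96.6% in Cul5 cKO. Among the other 5 libraries, the share of the leading transcript spanned at most 10 percentage points in 24 of the 37 members, with 5.64 for Slc2a1 and 9.66 for Gapdh. It spanned more in 13, among them Slc16a3 with 14.3, Pfkm with 17.9, Tpi1 with 44.1 and Pfkfb4 with the largest span, 87.2.

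**Figure D5:**
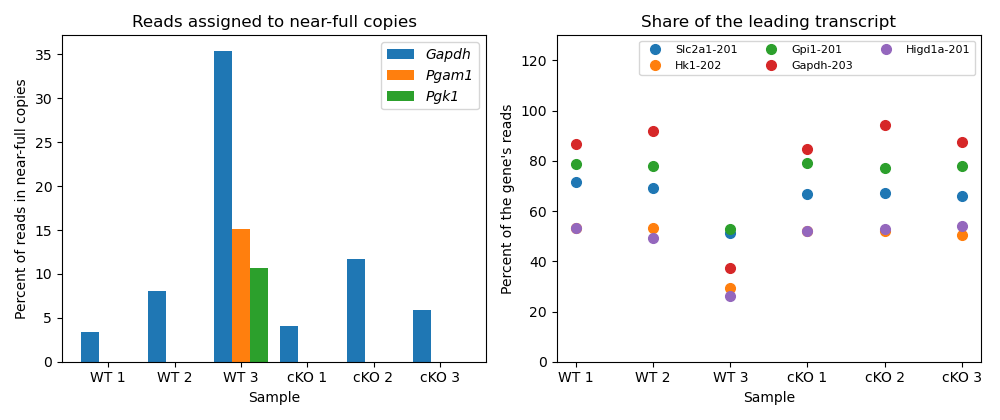
Left, the percent of reads of Gapdh, Pgam1 and Pgk1 assigned to near-full copies in each sample. Right, the percent of a gene's reads in its leading transcript for 5 members. WT replicate 3 stands apart in both, with 35.4% of Gapdh reads in copies and 51.2% of Slc2a1 reads in Slc2a1-201.

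Other genes of these pathways, given as lists, add 2 that passed the test. Among the 29 tested of 34 further hypoxia-induced genes, 1 was higher (background 0.611%) and none lower (background 0.418%), with a median of 0.16. It was Egln3, the prolyl hydroxylase that HIF-1 induces and that acts on HIF-1 alpha in return. Egln3 was at 84.7, 67.1 and 67.3 CPM in WT against 171, 159 and 171 CPM in Cul5 cKO. The groups were far apart, at a distance well beyond the spread within each, and the log2 fold change was 1.19 ± 0.10 (SE, n = 3 each, edgeR adjusted p = 0.0105). Its adjusted p by edgeR was 0.0753 with WT replicate 2 left out, 0.0789 with WT replicate 3 left out and 0.0779 with Cul5 cKO replicate 3 left out, at log2 fold changes of 1.12 to 1.17.

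The pentose phosphate pathway branches from glucose-6-phosphate and makes NADPH and ribose. All 10 of its listed genes were tested, all 10 had a positive log2 fold change (background 48.8%), with a median of 0.17, and 6 were higher with no overlap between genotypes (background 14.0%). G6pdx, the entry enzyme, was at 114, 111 and 107 CPM in WT against 138, 141 and 146 CPM in Cul5 cKO. It was the 1 of the 10 that passed (background 0.611% higher), with a log2 fold change of 0.35 ± 0.06 (SE, n = 3 each, edgeR adjusted p = 0.0493). Leaving out any sample other than WT replicate 1 took its adjusted p to between 0.0679 and 0.220. In replicates 2 and 3 alone, 4 of the 10 were higher (background 4.53%). Beside G6pdx these were Pgd, Rpia and Prps2, with log2 fold changes of 0.36, 0.35 and 0.29.

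Of the 22 tested among 32 further genes of glycolysis and pyruvate metabolism, none passed in either direction by edgeR (backgrounds 0.611% and 0.418%). At an unadjusted p under 0.05, 3 were higher and 3 lower (backgrounds 11.0% and 10.4%), and the median was 0.06. Pdk2, a kinase of pyruvate dehydrogenase named here after its values were seen, had the largest difference of the list, at 6.32 to 9.87 CPM in WT against 2.27 to 4.78 CPM in Cul5 cKO with no overlap. Its log2 fold change was -1.25 ± 0.31 (SE, n = 3 each, edgeR adjusted p = 0.104), and DESeq2 gave an adjusted p of 0.00878. In replicates 2 and 3 alone, 3 of the 21 tested there were higher (background 4.53%) and 0 lower (background 4.56%). The 3 were Tigar, Me2 and Pcx, with log2 fold changes of 0.37, 0.39 and 0.81. The 10 tested genes of glycogen metabolism had a median of -0.08, and none passed or had an unadjusted p under 0.05. Among the 29 further hypoxia-induced genes, 2 were higher in replicates 2 and 3 alone (background 4.53%) and 1 lower (background 4.56%). Beside Egln3, Jmjd6 was higher and Zfp395 lower in that fit, with log2 fold changes of 0.46 and -0.75.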

How the data were processed

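Poly-A RNA of 3 WT and 3 Cul5 cKO Th9 cultures was sequenced by the authors in single-end reads of 50 bp and assigned to mouse transcripts of GRCm38 with kallisto 0.46.2, and edgeR 3.34.0 was used for normalization, per the submitters' processing notes. The authors deposited, for each sample, estimated counts and TPM per transcript, and log2 CPM per gene after TMM normalization, beside columns of their own comparison (log2 fold change and p-value), which were not used. The members and the lists of further genes were chosen with earlier results of these data known.

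Estimated counts were summed per gene with GENCODE M21 (116640 of 119414 transcripts matched, the rest holding 0.958% to 1.04% of counts), and rounded. The test was edgeR's quasi-likelihood test (4.0.16, in R 4.3.3) after its default expression filter (12925 genes) and TMM, with p-values adjusted by Benjamini-Hochberg across the genes tested and genes called at an adjusted p under 0.05. The common biological coefficient of variation was 16.1%. Levels are CPM with TMM-scaled libraries, and levels between genes are TPM, with ratios also in CPM. All 37 members and Cul5 are named, and list genes where called. Pdk2, Ncr1, Klra8, Cd4, Cd2 and Gata3 are also named, chosen after their values were seen. Copies are named only where they held at least 10% of a member's reads in a library. The edgeR and limma fits were tested on simulated counts without a replicate effect. The simulated fold changes were larger than those of nearly all members, so that test does not cover differences of the members' size. DESeq2 1.42.0, limma 3.58.1, blastn 2.17.0 and Python 3.11.15 (numpy 2.4.6, pandas 2.3.3, scipy 1.17.1) were also used. Alternatives were other scalings, filters and tests, limma on log2(TPM + 1), log2(TPM + 0.1) and the gene-level table, each sample left out, the replicate number as a block, replicates 2 and 3 alone, thinning to the depth of WT replicate 3, and copies added. The settings with near-full copies were chosen after seeing the data.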

Additional observations from a re-analysis of the deposited data

How the results depend on the processing

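Of 37 members, 2 were called higher and 0 lower. The 2 were also called with library size alone, a filter of 10 counts in each library, no filter but 1 count, counts scaled from TPM, copies added and counts thinned to the depth of WT replicate 3, there in 10 of 10 draws. With DESeq2 7 were higher, with limma on log2(TPM + 1) or log2(TPM + 0.1) 0, with limma on the deposited gene values 1, in replicates 2 and 3 alone 7 higher and 1 lower, with near-full copies added there 8 and 1, with near-full copies and without WT replicate 3 0, and at an unadjusted p under 0.05 13 higher and 5 lower. Leaving out single samples gave 0 to 3 higher and 0 lower. With the replicate number as a block 11 members were higher and 1 lower, and 10 of the other pathway genes were called. In that fit 6.56% of the genes tested passed (848 genes against 133). The numbers were not shown to pair the samples. The correlation of same-numbered deviations was 0.37, 0.206 and 0.0246. WT replicate 1 was at -0.265 and -0.187 with Cul5 cKO replicates 2 and 3, unlike with its own number. WT replicate 2 was at 0.201 with Cul5 cKO replicate 3, close to the value for its own number. WT replicate 3 correlated better with Cul5 cKO replicate 2 (0.0912) than with its own number. The other pathway genes called were 2, and 10 with DESeq2, 10 in replicates 2 and 3 alone, with or without near-full copies, 19 unadjusted, 1 with counts scaled from TPM, either limma on TPM, limma on the gene-level table or thinning, 0 with near-full copies without WT replicate 3, and 0 to 4 without single samples. The 4 lists behind these counts held 22, 10, 10 and 29 genes tested in the 6 samples. Of all genes tested, 11.0% were higher and 10.4% lower at an unadjusted p under 0.05. In replicates 2 and 3 alone, 4.53% were called higher and 4.56% lower. The counts of other pathway genes are to be read beside these shares. The median log2 fold change of glycolysis members was 0.20, and 0.11 with either limma on TPM.

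The direction turned for 9 members, none of them called by edgeR in the 6 samples without a block. Of these, Bnip3 was called higher with the replicate block. Gpi1 was at -0.054 with counts scaled from TPM, -0.095 with log2(TPM + 1) and -0.095 with log2(TPM + 0.1), Slc2a3 at -0.069 with all genes sharing 150 bases added, and Ldhb at 0.69 in the gene-level table and 0.88 with near-full copies without WT replicate 3. Pfkm was at -0.034 with library size alone, -0.069 when thinned, and -0.070 in replicates 2 and 3 alone with or without near-full copies. Pfkfb3 was at -0.0099 with library size alone and -0.030 in both of the latter. Pdk3 was at 0.011 with counts scaled from TPM, 0.0070 when thinned, and 0.0037 in replicates 2 and 3 alone, with or without near-full copies. Without single samples, Pfkm ranged from -0.12 to 0.074, Pfkfb3 from -0.14 to 0.23, Aldoc from -0.95 to 0.63, Ldhb from -1.0 to 0.85, Pdk3 from -0.096 to 0.076, Bnip3 from -0.031 to 0.79 and Ddit4 from -0.088 to 0.19. The causes of these changes were not tested. Precision of low members is limited by depth, above all in WT replicate 3.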
